A study of Mus musculus with 10 samples.

Results

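Amino acids enter and leave T cells through membrane carriers of the solute carrier (SLC) families. All genes of 7 amino acid carrier families (SLC1, SLC3, SLC6, SLC7, SLC36, SLC38 and SLC43) were taken from the count table by their symbols, with pseudogenes and opposite-strand transcripts left out. The rule gave 63 genes of 27179, without use of any measured value. They were described in regulatory T cells (Tregs), the CD4 lineage marked by the transcription factor Foxp3, which holds immune responses in check. Cells positive for CD4, TCRb and the YFP reporter had been sorted from gut (colon plus small intestine) or spleen of C57BL/6 mice. The WT group carries Foxp3Cre-YFP, in which the Foxp3 locus drives Cre recombinase and YFP, and the Maf-KO group carries the same allele together with floxed Maf, so that both genotypes express Cre. The product of Maf, c-Maf, is a leucine zipper transcription factor. There were 2 WT gut libraries (replicates 1 and 3), 2 Maf-KO gut libraries (replicates 2 and 3), 3 WT spleen libraries and 3 Maf-KO spleen libraries (replicates 1, 2 and 3). The labels do not say whether replicates came from separate animals, and give neither age nor sex, so that the p values reflect only how far these samples spread, which may be technical. Gut and spleen were different preparations, so tissue and preparation cannot be told apart.

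The carriers differ in what they move and in how they are driven. SLC1 and SLC38 proteins take up neutral or acidic amino acids with sodium, SLC6 proteins carry amino acids, taurine, creatine or transmitters with sodium and chloride, and SLC36 proteins work with protons, often at lysosomes. SLC7 holds cationic carriers that work alone and light chains that reach the cell surface only when joined to an SLC3 heavy chain, of which Slc3a2 (CD98) is the one used in lymphocytes. In activated T cells leucine uptake through the pair of Slc7a5 and Slc3a2 and glutamine uptake through Slc1a5 and SLC38 carriers feed protein synthesis and the growth kinase complex mTORC1, and both are induced on activation.

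Library totals were 8567035 to 13983965 counts. The targeted gene, Maf, was counted 859 and 918 times in WT gut against 7 and 3 times in Maf-KO gut, and 337, 312 and 484 times in WT spleen against 2, 10 and 2 times in Maf-KO spleen, so every library matched its genotype label. Levels of 1 gene across libraries are given as CPM, counts scaled to a common library size after TMM (a factor that sets aside differences in RNA composition), and 3 counts correspond to 0.231 to 0.377 CPM. Foxp3 was present in all 10 libraries (1037 to 2431 counts), and the 9 Treg markers, all detected, summed to 10080 to 11110 CPM in gut and 4690 to 5526 CPM in spleen. Ctla4 led in gut (4325 to 5644 CPM against 239 to 456 CPM), and Il2ra lay lower in gut (307 to 412.5 CPM against 484.5 to 761 CPM), as did Izumo1r (181 to 401 CPM against 424 to 693 CPM). Levels between genes are given as FPKM, the deposited value per kilobase of gene, which carries no such scaling. The summed level of 7 plasma cell markers was 7372 and 2944 CPM in WT gut and 4272 and 1877 CPM in Maf-KO gut. In spleen it was 304 to 507 CPM. All 7 were detected, with Jchain in front in gut and Xbp1 in spleen. Among the 7, Irf4 had 180 to 239 CPM in gut and 49.0 to 71.8 CPM in spleen, and it is also among the regulators of carrier level read below. The 9 stromal and endothelial markers summed to at most 78.5 CPM in gut and 115 to 192 CPM in spleen, mostly from endothelial Pecam1, while stromal Col3a1 had 0.696 to 8.17 CPM in gut and at most 0.178 CPM in spleen. The 7 B cell markers summed to 49.4 to 80.0 CPM in gut and 130.3 to 399 CPM in spleen. The 11 macrophage, monocyte and neutrophil markers summed to 98.7 to 296 CPM in gut and 142 to 877 CPM in spleen. Their highest sums were in WT spleen replicate 3 (877 CPM) and Maf-KO spleen replicate 2 (501 CPM), where S100a8 had 321 and 122 CPM. The 5 dendritic cell markers summed to at most 38.8 CPM and the 4 red cell markers to at most 32.6 CPM in any library. The 7 markers of CD8 T, NK and innate lymphoid cells summed to 1474 to 3546 CPM in gut and 77.3 to 150.0 CPM in spleen. Most of the gut sum was Gzmb (1403 to 3488 CPM). Prf1 was higher in gut too (26.8 to 48.7 CPM against 9.98 to 22.7 CPM), whereas Cd8b1 was lower (8.17 to 15.8 CPM against 22.0 to 48.3 CPM). The 17 gut epithelial markers summed to 148 to 179 CPM in gut, mostly from Epcam, and 36.1 to 71.5 CPM in spleen, with Apoa4 and Alpi at 0 in every library. The part of these other cells in the tissue differences below was not tested, except for the values given beside a result.

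Of the 63 genes, 10 had no counts in any library and 25 had too few to be tested, so 28 were tested. They were 3 of 7 genes of SLC1, 1 of 2 of SLC3, 5 of 21 of SLC6, 7 of 15 of SLC7, 3 of 4 of SLC36, 6 of 11 of SLC38 and 3 of 3 of SLC43. Among those with few, Slc6a4, the serotonin carrier, had at most 10 counts and Slc6a14, a carrier of neutral and cationic amino acids, at most 14. Slc7a11, the cystine and glutamate exchanger, is the untested gene most often studied in T cells. It had 8 and 4 counts in WT gut, 12 and 3 in Maf-KO gut, with 8, 6 and 5 in WT spleen against 2, 6 and 2 in Maf-KO spleen, too few for a comparison. The second heavy chain gene, Slc3a1, had 2 to 10 counts per library. All 63 together took 0.209 to 0.248% of the counts in the 4 gut libraries and 0.131 to 0.151% in the 6 spleen libraries.

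A few genes made up most of the transcripts per length. Slc3a2 was the highest in gut with 215 and 207 FPKM in WT and 226 and 217 FPKM in Maf-KO. Slc38a2 (SNAT2, a sodium-coupled carrier of small neutral amino acids and glutamine) followed at 126 to 160.5 FPKM, and Slc1a5 (ASCT2, an exchanger of glutamine and other neutral amino acids) at 86.9 to 116.5 FPKM. The gut ranges of Slc38a2 and Slc3a2 did not overlap, and those of Slc38a2 and Slc1a5 did not overlap either. In spleen the order differed. Slc1a5 had 51.6 to 113 FPKM, Slc38a2 45.1 to 61.5 FPKM and Slc3a2 40.1 to 47.4 FPKM, and these neighbouring ranges overlapped. These 3 genes held 74.0 to 76.8% of the summed FPKM of the 28 genes in gut and 46.1 to 54.5% in spleen.

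Behind them came Slc38a10, an SLC38 member with a less settled role, at 32.2 to 43.4 FPKM over all 10 libraries, and Slc38a1 (SNAT1), at 15.4 to 23.0 FPKM. Slc7a5 (LAT1, 11.8 to 21.2 FPKM), Slc6a6 (the taurine carrier TauT, 12.7 to 19.3), Slc43a2 (LAT4, 12.2 to 17.4) and Slc7a6 (y+LAT2, 11.9 to 16.3) lay in overlapping ranges. The remaining genes were lower, except Slc7a10 in 1 Maf-KO spleen library, at 43.7 FPKM.

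**Figure D1:**
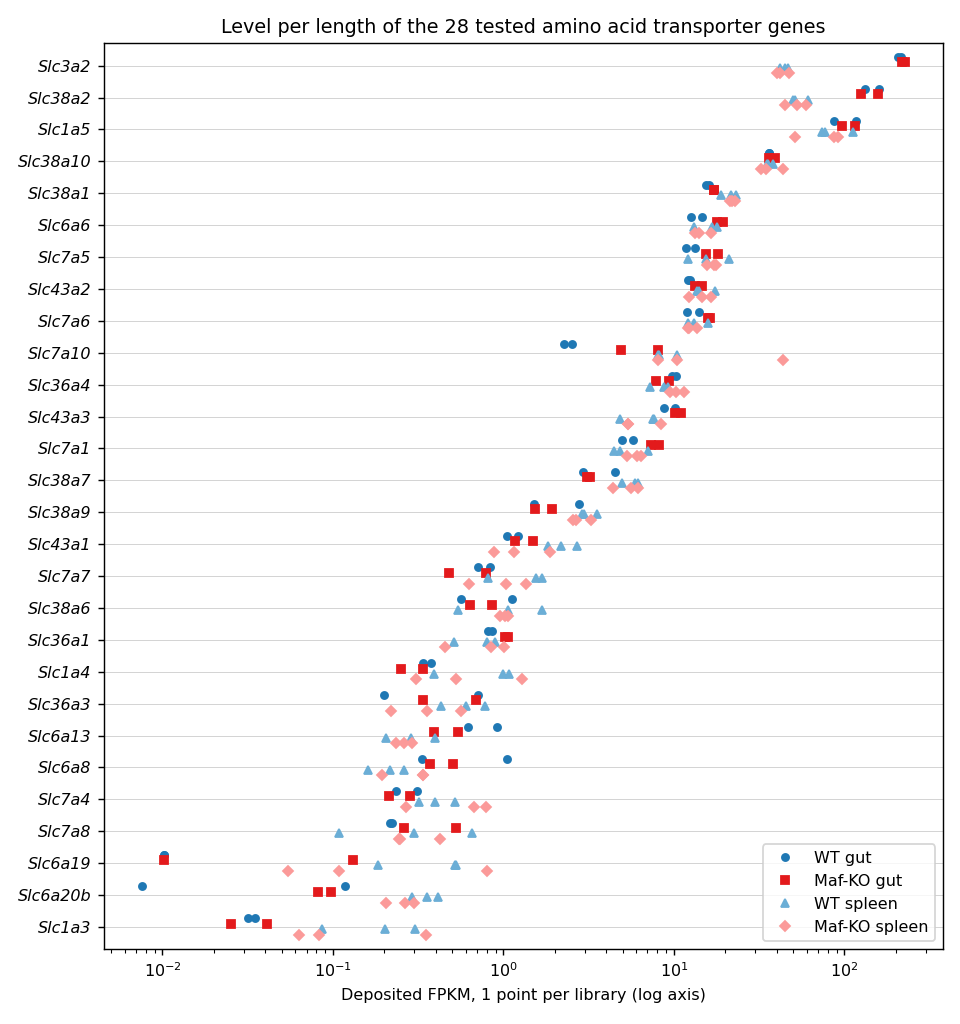
Deposited FPKM (x axis, log scale) of the 28 tested genes (y axis, ordered by the mean of the 4 groups), 1 point per library, coloured by group. Slc3a2 and Slc38a2 separate gut from spleen, whereas Slc1a5, Slc38a10 and Slc7a5 do not. The points at 0.0102 for Slc6a19 and 0.00758 for Slc6a20b are libraries with no counts.

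The first comparison, gut against spleen in WT, asks which carriers differ between Tregs of the 2 sites. The heavy chain gene Slc3a2 and Slc38a2 were higher in gut Tregs by 5.61-fold and 3.19-fold. Slc6a8 (the creatine carrier) and Slc6a13 (GAT2, a carrier of GABA and taurine) were higher too, at low levels, as was Slc43a3, which is known to carry purine nucleobases rather than amino acids. By edgeR's quasi-likelihood test, with p values adjusted over all 13214 genes tested and a call at an adjusted p under 0.05, 5 of 28 genes (17.9%) were called, all higher in gut. Of all genes tested 28% were called, 14.7% higher in gut and 13.3% lower, a share above that of the carriers, and the difference between these shares was not tested. The count was 3 of 27 without WT spleen replicate 1, 3 of 28 without replicate 2 and 2 of 26 without replicate 3. It was also smaller without either WT gut library, which leaves 1 in that group. Without WT gut replicate 1 not every call was higher in gut. The same held by DESeq2 (4 higher, 2 lower), limma-voom (5 and 1) and limma-trend on the deposited log2 FPKM (3 and 4). By edgeR the counts were 4 and 2 with no filter and 3 and 2 on the WT groups alone. The median log2 difference of the 28 genes was -0.14, and that of all genes -0.03. In bulk RNA, a larger share of cells that express a gene and more RNA per cell cannot be told apart.

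In Maf-KO the same comparison called 6 of 28 genes (21.4%), again all higher in gut, against 28.6% of all genes (14.4% higher and 14.1% lower). Slc3a2, Slc38a2 and Slc43a3 were called as in WT. Slc6a6, Slc7a1 and Slc7a6 were called in Maf-KO and not in WT, and the test of the difference between genotypes called none of them. Without Maf-KO gut replicate 3 the count was 3. DESeq2 called 7 higher and 1 lower in gut, and limma-trend on the deposited log2 FPKM 3 and 2. The median log2 difference was 0.26, and that of all genes -0.02.

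Gut and spleen libraries whose titles share a number deviated together, and a fit with that number as a block called more genes. In WT it called 10 of 28, 8 higher and 2 lower in gut, where it called 37.2% of all genes, and in Maf-KO 11 of 28, 10 higher and 1 lower, where it called 39.7%. The 5 genes called in WT and the 6 in Maf-KO all kept their calls.

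**Figure D2:**
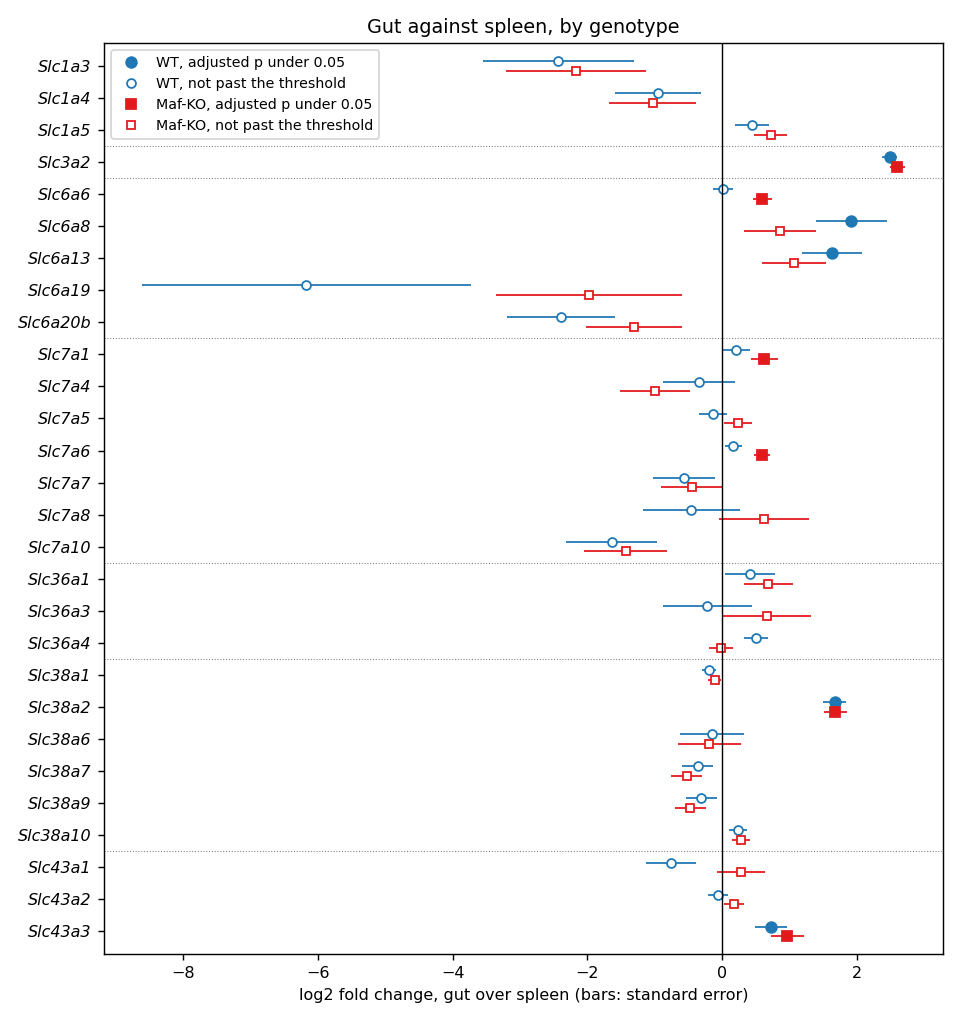
Log2 fold change of gut over spleen (x axis) with its standard error for the 28 tested genes, in WT (circles) and Maf-KO (squares), filled where the edgeR adjusted p was under 0.05. Slc3a2 stands at 2.49 and 2.60 and Slc38a2 at 1.67 and 1.68. No gene was called lower in gut, and the widest bars belong to genes with few counts, such as Slc6a19.

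Slc3a2 lies on chromosome 19 (GRCm38.p6, chr19:8706882-8723369, minus strand). It had 658 and 666 CPM in WT gut and 716 and 693 CPM in Maf-KO gut. In spleen it had 107, 126 and 121 CPM in WT and 127, 114 and 108 CPM in Maf-KO. All 4 gut libraries lay far above all 6 spleen libraries. The log2 difference was 2.49 (SE 0.11, adjusted p = 5.91e-07) in WT and 2.60 (SE 0.11, adjusted p = 4.34e-07) in Maf-KO by edgeR. In the same order of libraries, the summed plasma cell level was 7372 and 2944 CPM in WT gut and 4272 and 1877 CPM in Maf-KO gut. It was 304 to 507 CPM in spleen, below every gut library. Its part in the Slc3a2 difference was not tested.

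The light chain genes that pair with Slc3a2 were nearer to each other between the sites. Slc7a5, the carrier of leucine and other large neutral amino acids, had 48.5 and 44.9 CPM in WT gut, 58.0 and 68.8 CPM in Maf-KO gut, 46.6, 68.1 and 38.5 CPM in WT spleen and 54.5, 50.03 and 56.4 CPM in Maf-KO spleen. Its log2 difference between gut and spleen was -0.13 in WT (95% interval -0.60 to 0.34) and 0.24 in Maf-KO (-0.22 to 0.70), and neither was called. Slc7a6, the light chain that exchanges cationic for neutral amino acids, had 54.3 and 48.3 CPM in WT gut and 63.3 and 65.7 CPM in Maf-KO gut, with 51.2, 44.8 and 41.2 CPM in WT spleen and 46.1, 41.8 and 40.8 CPM in Maf-KO spleen. It was higher in gut by 0.59 on the log2 scale in Maf-KO (SE 0.12, edgeR adjusted p = 0.00606), where the groups did not overlap, and the WT difference of 0.17 was not called (adjusted p = 0.362). Without TMM scaling the Maf-KO difference was 0.33 (adjusted p = 0.0831), not a call.

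Slc7a7 (y+LAT1) reached at most 3.65 CPM and Slc7a8 (LAT2) 2.37 CPM, and neither was called in any comparison. Slc7a10 (Asc-1, a light chain for small neutral amino acids) had 4.53 and 5.33 CPM in WT gut and 10.2 and 16.9 CPM in Maf-KO gut. In spleen it had 17.5, 14.3 and 14.4 CPM in WT and 77.2, 18.5 and 14.3 CPM in Maf-KO. WT gut lay below every other library, and Maf-KO spleen replicate 1 lay far above all others. The WT difference of -1.64 was not called (SE 0.68, edgeR adjusted p = 0.0995), but it was called with the title number as a block (-1.69, adjusted p = 0.00262), without Maf-KO spleen replicate 1 (-1.64, adjusted p = 0.00272) and under 5 other alternatives, DESeq2 among them (-1.62, adjusted p = 0.0193). The Maf-KO difference of -1.43 was not called (SE 0.62, edgeR adjusted p = 0.117), and those groups overlapped. DESeq2 called it (-1.41, adjusted p = 0.0382), as did edgeR without Maf-KO spleen replicate 3 (-1.82, adjusted p = 0.0398). With the title number as a block in edgeR it was -0.29 (adjusted p = 0.401). The annotated exons of Slc7a10 overlap those of Lrp3 on the opposite strand. The strand setting of the counting is not given in the sources used here. Lrp3 had 40 counts in each of Maf-KO spleen replicate 1 and Maf-KO gut replicate 3, and 6 to 21 in the other 8 libraries.

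The balance of heavy to light chain transcripts also differed between the sites within single libraries, where no scaling between libraries enters. The FPKM of Slc3a2 divided by the summed FPKM of the 5 tested light chain genes (Slc7a5, Slc7a6, Slc7a7, Slc7a8 and Slc7a10) was 6.99 and 7.64 in WT gut and 6.03 and 5.02 in Maf-KO gut. It was 0.967, 1.07 and 1.30 in WT spleen, and in Maf-KO spleen 0.630, 1.05 and 1.03. Without Slc7a10 the ratio was 6.16 to 8.42 in gut and 1.27 to 1.70 in spleen. The ratio of Slc3a2 to Slc7a5 alone was 11.96 to 17.6 in gut and 2.19 to 3.73 in spleen, so gut and spleen did not overlap by any of these measures.

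**Figure D3:**
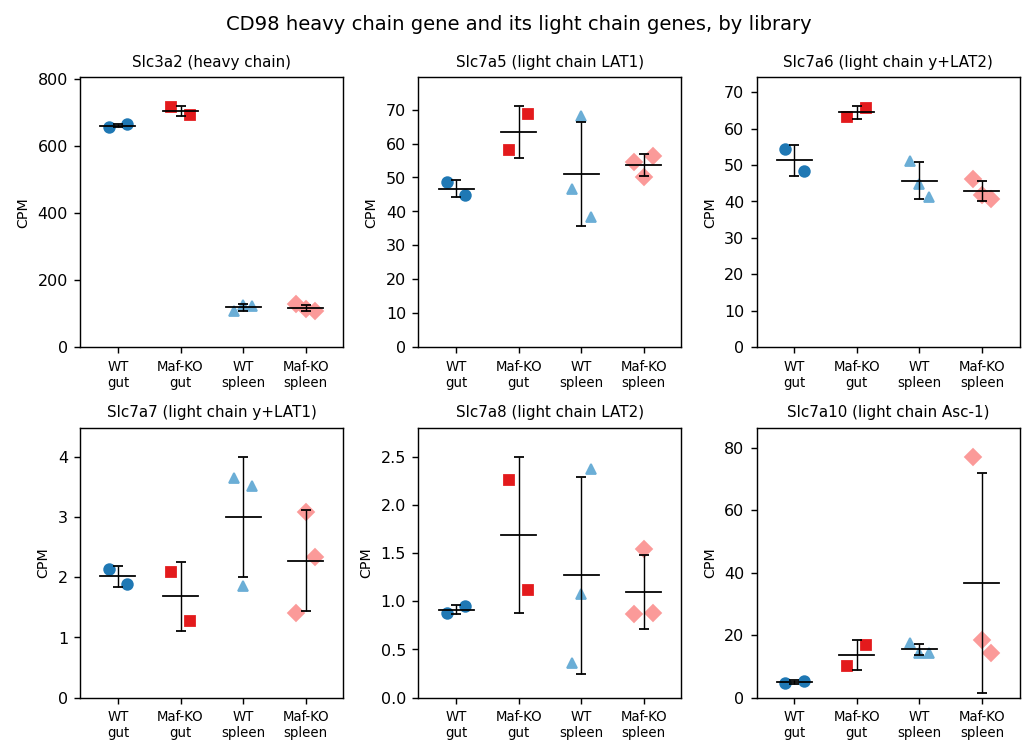
CPM (y axis, from 0) of Slc3a2 and 5 light chain genes in each library by group, with lines at the group mean and bars for the SD (n = 2 in gut, 3 in spleen). Slc3a2 sits between 658 and 716 CPM in the gut libraries and between 107 and 127 CPM in the spleen libraries, while Slc7a5 overlaps between sites. In the Slc7a10 panel 1 Maf-KO spleen library lies at 77.2 CPM.

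Slc38a2 showed the second clear difference. It lies at chr15:96687392-96699728 on the minus strand of GRCm38.p6. It had 769 and 668 CPM in WT gut, 624 and 787 CPM in Maf-KO gut, 199.7, 260.5 and 215 CPM in WT spleen and 189, 252.5 and 220.3 CPM in Maf-KO spleen. Gut and spleen did not overlap in either genotype. The log2 difference was 1.67 (SE 0.17, adjusted p = 7.68e-05) in WT and 1.68 (SE 0.17, adjusted p = 8.52e-05) in Maf-KO by edgeR. Its close relative Slc38a1, which carries a similar range of neutral amino acids, had 140.0 and 139.8 CPM in WT gut and 155 and 155 CPM in Maf-KO gut, with 157, 145 and 175.5 CPM in WT spleen and 162, 174.5 and 166 CPM in Maf-KO spleen. Within each genotype the gut values of Slc38a1 lay below the spleen values. Its log2 difference was -0.19 in WT and -0.11 in Maf-KO, and neither was called with TMM scaling. Without it Slc38a1 was called lower in gut in WT (-0.46, adjusted p = 0.00692) and in Maf-KO (-0.37, adjusted p = 0.0187). Within libraries the FPKM ratio of Slc38a2 to Slc38a1 was 7.29 to 9.95 in gut and 2.12 to 3.25 in spleen.

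The other SLC38 genes were not called in either genotype. Slc38a9, the lysosomal arginine sensor upstream of mTORC1, had 25.5 and 14.7 CPM in WT gut, 18.4 and 14.8 CPM in Maf-KO gut, 27.1, 23.7 and 24.0 CPM in WT spleen and 20.6, 26.6 and 21.6 CPM in Maf-KO spleen. All Maf-KO gut values lay below the Maf-KO spleen values, and that difference was -0.47 (SE 0.23, edgeR adjusted p = 0.167). With the title number as a block it was -0.54 and called (adjusted p = 0.0414). Slc38a10 had 204 to 228 CPM in gut and 159 to 213 CPM in spleen. Its Maf-KO difference of 0.28 was called with the block (0.41, adjusted p = 0.00706) and without Maf-KO spleen replicate 1 (0.41, adjusted p = 0.0234). The lysosomal glutamine carrier Slc38a7 differed by -0.36 in WT and by -0.52 in Maf-KO, and the latter was called with the title number as a random effect in limma-voom (-0.50, adjusted p = 0.0391) and without TMM scaling (-0.78, adjusted p = 0.0252). The less studied Slc38a6 differed by -0.15 and -0.19.

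Slc1a5 was called only with changes to the fit. It had 332 and 260.1 CPM in WT gut, 285 and 346 CPM in Maf-KO gut, 269, 195 and 185 CPM in WT spleen and 217, 130.0 and 229 CPM in Maf-KO spleen. The log2 difference was 0.45 in WT (SE 0.25, edgeR adjusted p = 0.204) and 0.72 in Maf-KO (SE 0.25, adjusted p = 0.0538), and gut and spleen overlapped in WT and not in Maf-KO. DESeq2 called the Maf-KO difference (0.73, adjusted p = 0.0137). With the title number as a block it was called in both, at 0.40 in WT (adjusted p = 0.0440) and 0.86 in Maf-KO (adjusted p = 0.00133). Slc1a4 (ASCT1, an exchanger of alanine, serine and cysteine) was low, with 1.51 and 1.42 CPM in WT gut, 1.39 and 1.04 in Maf-KO gut, 3.65, 1.39 and 3.51 in WT spleen, and in Maf-KO spleen 4.56, 1.87 and 1.07. Its WT difference of -0.95 was called only with the title block, at -1.28 (adjusted p = 0.0316). The glutamate carrier Slc1a3 reached at most 1.32 CPM.

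In SLC6, the taurine carrier Slc6a6 was the only abundant gene. It had 92.8 and 84.7 CPM in WT gut, 119 and 129 CPM in Maf-KO gut, 89.1, 101 and 73.9 CPM in WT spleen and 74.1, 79.1 and 92.7 CPM in Maf-KO spleen. The Maf-KO gut libraries lay above all 8 others. The difference between gut and spleen was 0.60 in Maf-KO (SE 0.14, edgeR adjusted p = 0.0120) and 0.01 in WT (adjusted p = 0.965). Without Maf-KO gut replicate 3 the Maf-KO difference was 0.54 (adjusted p = 0.0868), and without TMM scaling 0.34 (adjusted p = 0.0968), neither a call.

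Slc6a8 and Slc6a13 were called in WT at few counts. Slc6a8 had 34 and 12 counts in WT gut and 6, 12 and 8 in WT spleen, or 4.27 and 1.42 CPM against 0.534, 0.925 and 0.760 CPM. In Maf-KO it had 18 and 27 counts in gut and 11, 11 and 7 in spleen, a difference of 0.86 that was not called. The WT groups did not overlap and the log2 difference was 1.92 (SE 0.53, edgeR adjusted p = 0.0220). Without WT gut replicate 1 it was 0.92 (adjusted p = 0.342), and the call was lost without WT spleen replicate 1 (0.0665) or 3 (0.0504) as well. That gut library also had the highest summed level of 15 pancreatic acinar markers, 217 CPM against 44.5 CPM in the other WT gut library, 16.2 and 27.4 CPM in Maf-KO gut and 6.39 to 27.6 CPM in spleen, and its part in this result was not tested. Slc6a13 had 16 and 12 counts in WT gut and 8, 7 and 4 in WT spleen, with a difference of 1.63 (SE 0.45, adjusted p = 0.0225). In Maf-KO it had 14 and 11 counts in gut and 4, 5 and 5 in spleen, a difference of 1.07 that was not called. DESeq2 did not call the WT difference (adjusted p = 0.0800). The edgeR call was lost without either WT gut library (adjusted p = 0.173 without replicate 1 and 0.0508 without replicate 3) and without WT spleen replicate 2 (0.0588) or 3 (0.0644).

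Slc6a20b had 3 and 0 counts in WT gut and 13, 11 and 11 in WT spleen, and its difference of -2.39 had an edgeR adjusted p of 0.0502. It was called in 5 of 20 alternatives, without WT gut replicate 1 (adjusted p = 0.0182) among them. Its exons overlap those of the more abundant Sacm1l (1836 to 2746 counts) on the opposite strand. Slc6a19, the neutral amino acid carrier of the gut brush border, had no counts in WT gut and 12, 5 and 12 in WT spleen. It was not called (edgeR adjusted p = 0.0918), but 6 of 20 alternatives called it, among them DESeq2 (adjusted p = 0.0391), edgeR with no filter (0.0493) or on the WT groups alone (0.0349), and the title number as a random effect (0.0298). In Maf-KO it had 0 and 4 counts in gut and 2, 16 and 1 in spleen. The 7 B cell markers summed to 260, 195 and 300 CPM in WT spleen and 178, 399 and 130.3 CPM in Maf-KO spleen. They summed to 49.4 to 80.0 CPM in gut, lowest in Maf-KO gut replicate 3, which had the 4 counts. The part of B cells in this result was not tested.

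Among the cationic carriers, Slc7a1 (CAT1, the main uptake route for arginine and lysine) had 42.9 and 38.6 CPM in WT gut, 56.8 and 63.4 CPM in Maf-KO gut, 27.6, 46.5 and 31.6 CPM in WT spleen and 34.6, 39.7 and 41.9 CPM in Maf-KO spleen. The 2 Maf-KO gut libraries were again the highest of all. The difference was 0.63 in Maf-KO (SE 0.20, edgeR adjusted p = 0.0390) and 0.21 in WT (adjusted p = 0.490). With the title number as a block the WT difference was also called (0.46, adjusted p = 0.0232). The Maf-KO call was lost without any 1 of the 5 Maf-KO libraries, with adjusted p values of 0.0902 and 0.194 without gut replicates 2 and 3 and of 0.109, 0.0806 and 0.0596 without spleen replicates 1, 2 and 3. Without TMM scaling the Maf-KO difference was 0.38 (adjusted p = 0.1499) and by limma-trend 0.39 (adjusted p = 0.183), neither a call. The related Slc7a4, whose exons overlap P2rx6 on the opposite strand, reached at most 2.28 CPM and was not called.

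The SLC36 carriers move small amino acids with protons, and none was called without the block. Slc36a4 had 20.6 and 20.5 CPM in WT gut, 16.4 and 19.6 CPM in Maf-KO gut, 12.1, 15.4 and 16.1 CPM in WT spleen and 19.96, 16.8 and 18.1 CPM in Maf-KO spleen. Its WT groups did not overlap, and the difference of 0.50 (edgeR adjusted p = 0.0619) was called with the title block (0.55, adjusted p = 0.0411). Slc36a1 (PAT1, the lysosomal member) had 4.40 and 4.85 CPM in WT gut, 5.75 and 6.07 CPM in Maf-KO gut, 3.65, 2.47 and 4.27 CPM in WT spleen and 4.77, 4.08 and 2.15 CPM in Maf-KO spleen. Its Maf-KO difference of 0.69 was called with the block (0.97, adjusted p = 0.0479).

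In SLC43, the nucleobase carrier Slc43a3 had 27.2 and 24.7 CPM in WT gut, 28.5 and 30.99 CPM in Maf-KO gut, 17.3, 18.03 and 11.4 CPM in WT spleen and 19.9, 12.8 and 12.8 CPM in Maf-KO spleen. The gut values all lay above the spleen values. The difference was 0.73 in WT (SE 0.24, edgeR adjusted p = 0.0484) and 0.97 in Maf-KO (SE 0.24, adjusted p = 0.0141). The WT call was lost in 9 of 10 fits that each left out 1 library, the exception being Maf-KO spleen replicate 1, with adjusted p values from 0.0512 without Maf-KO spleen replicate 3 to 0.197 without WT gut replicate 1. It was also lost without TMM scaling (0.47, adjusted p = 0.1699) and by limma-trend (0.52, adjusted p = 0.133). The Maf-KO call was lost without Maf-KO gut replicate 3 (adjusted p = 0.0839). The branched-chain carrier Slc43a2 (LAT4) had 92.5 and 95.5 CPM in WT gut, 103 and 114 CPM in Maf-KO gut, 87.9, 115 and 90.1 CPM in WT spleen and 109, 81.4 and 96.3 CPM in Maf-KO spleen. Its WT difference was -0.06. In Maf-KO it was 0.18, and with the block it was called (0.29, adjusted p = 0.0348).

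**Figure D4:**
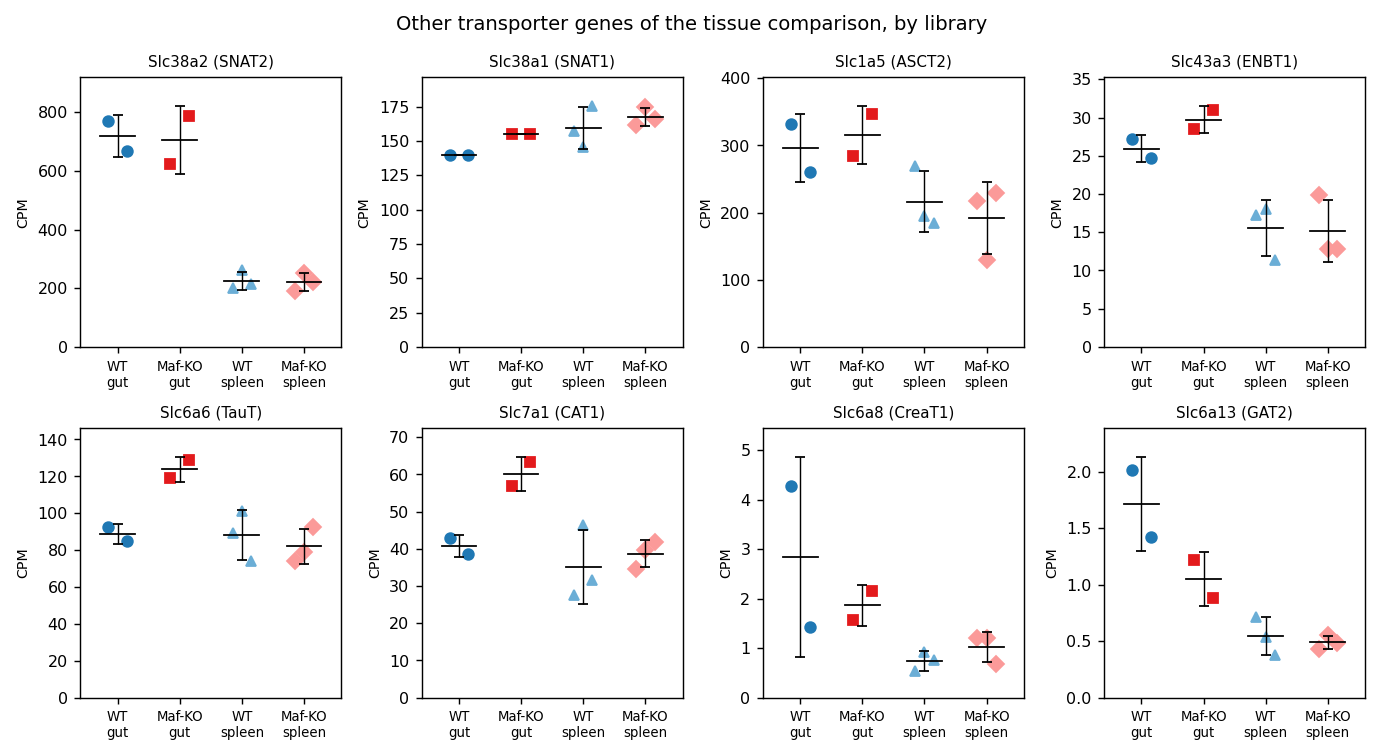
CPM (y axis, from 0) of 8 further carrier genes in each library by group, with lines at the group mean and bars for the SD (n = 2 in gut, 3 in spleen). Slc38a2 separates gut from spleen. Slc38a1 overlaps between the sites when the genotypes are pooled, and within each genotype its gut points lie below its spleen points. In Slc6a6 and Slc7a1 the Maf-KO gut points are the highest, and Slc6a8 and Slc6a13 reach at most 4.27 and 2.01 CPM.

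Promoters of the carrier genes were searched for 3 short motifs, because the pathway of amino acid shortage and c-Maf act through known sites. Windows from 250 bases before the start to 50 bases after it came from RefSeq (GRCm38.p6), which held a promoter for 21 of the 28 tested genes. The motifs were TGATGNAA (amino acid response), TGCTGA (the outer part of a Maf site) and TGANTCA (AP-1), read on both strands, and the last 2 can overlap. TGATGNAA occurred in 3.97% of all 32851 promoters and in those of Slc1a4 and Slc7a7. TGCTGA occurred in 19.5% and in those of Slc36a1, Slc43a2, Slc7a1 and Slc7a7, and TGANTCA in 7.81% and in those of Slc38a10, Slc38a7 and Slc7a1. The percentages count windows, whereas a gene is named for a match in any of its windows. The 21 genes have 30 windows, of which 3 held TGATGNAA, 6 TGCTGA and 3 TGANTCA. The window of Slc3a2 (chr19:8713898-8714147) lies inside the gene span given above, so the sequence before the 5' end of that span was not searched. The windows of Slc3a2 and Slc38a2 held none of the 3 in these letters. Sequence outside the windows was not searched, so a site elsewhere in these genes could not be seen. A match is a string of letters and not a bound site. Slc7a1 has 2 windows, and its TGCTGA lies in the other one. The windows of Slc38a2, which was called in both genotypes, and the first of Slc7a1, which has a match and Maf-KO gut levels above all other libraries, are shown 5' to 3' on the minus strand for the 250 bases before the start, with the AP-1 match in capitals at 123 bases before the start.
Slc38a2 (chr15:96699729-96699978): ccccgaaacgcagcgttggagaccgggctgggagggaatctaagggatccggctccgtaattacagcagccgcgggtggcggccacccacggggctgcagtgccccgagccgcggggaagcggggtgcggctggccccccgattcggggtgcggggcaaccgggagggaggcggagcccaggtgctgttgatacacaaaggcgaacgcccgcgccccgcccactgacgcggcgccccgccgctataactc
Slc7a1 (chr5:148399905-148400154): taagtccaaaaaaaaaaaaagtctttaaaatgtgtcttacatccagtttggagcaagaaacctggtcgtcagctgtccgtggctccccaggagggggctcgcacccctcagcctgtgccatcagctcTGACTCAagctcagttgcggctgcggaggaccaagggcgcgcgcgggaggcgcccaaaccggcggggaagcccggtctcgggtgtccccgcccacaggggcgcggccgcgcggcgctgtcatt

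The second comparison, Maf-KO against WT, asks whether c-Maf bears on these carriers in Tregs. In gut none of the 28 genes was called, against 0.151% of all genes (20 of 13214), and 3 had an unadjusted p under 0.05, against 8.14% of all genes (1076). No tool or alternative called any, DESeq2 and limma included. The 3 were Slc6a6 with a log2 difference of 0.48 (95% interval 0.13 to 0.84, edgeR adjusted p = 0.469), Slc7a1 with 0.56 (0.07 to 1.06, adjusted p = 0.577) and Slc7a6 with 0.33 (0.02 to 0.64, adjusted p = 0.589). In each, both Maf-KO gut libraries lay above both WT gut libraries, as given above. With 2 libraries per genotype such separation is common. The gut groups did not overlap, in either direction, for 15 of the 28 genes, and the share over all genes is not given here. By p, Slc7a10 followed with 1.46 (-0.15 to 3.07), its Maf-KO gut libraries also both above the WT ones, and then Slc7a5 with 0.44 (-0.07 to 0.95). The interval of Slc3a2 ran from -0.18 to 0.36 and that of Slc38a2 from -0.43 to 0.38, and differences within these bounds were not resolved with 2 libraries per genotype. The median log2 difference was 0.12 over the 28 genes and 0.00 over all genes.

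In spleen again none of the 28 genes was called, against 0.0151% of all genes (2 of 13214), and 2 had an unadjusted p under 0.05, against 2.85% of all genes (376), and no alternative called any. Slc43a1 (LAT3, a carrier of branched-chain amino acids) had 4.63, 7.24 and 5.79 CPM in WT spleen and 3.04, 2.31 and 4.97 CPM in Maf-KO spleen, with 3.65 and 3.31 CPM in WT gut and 3.66 and 4.71 CPM in Maf-KO gut. The spleen groups overlapped and the difference was -0.77 (95% interval -1.48 to -0.06, edgeR adjusted p = 0.999). Slc7a10 had a difference of 1.25 (0.04 to 2.45, adjusted p = 0.999), which rests on Maf-KO spleen replicate 1 and was 0.09 without it. The next smallest p was that of Slc36a4, whose 3 Maf-KO values lay above the 3 WT values, at 0.33 (-0.03 to 0.69). For Slc3a2 the interval was -0.25 to 0.20, for Slc38a2 -0.37 to 0.31, for Slc1a5 -0.67 to 0.33 and for Slc7a5 -0.34 to 0.48.

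**Figure D5:**
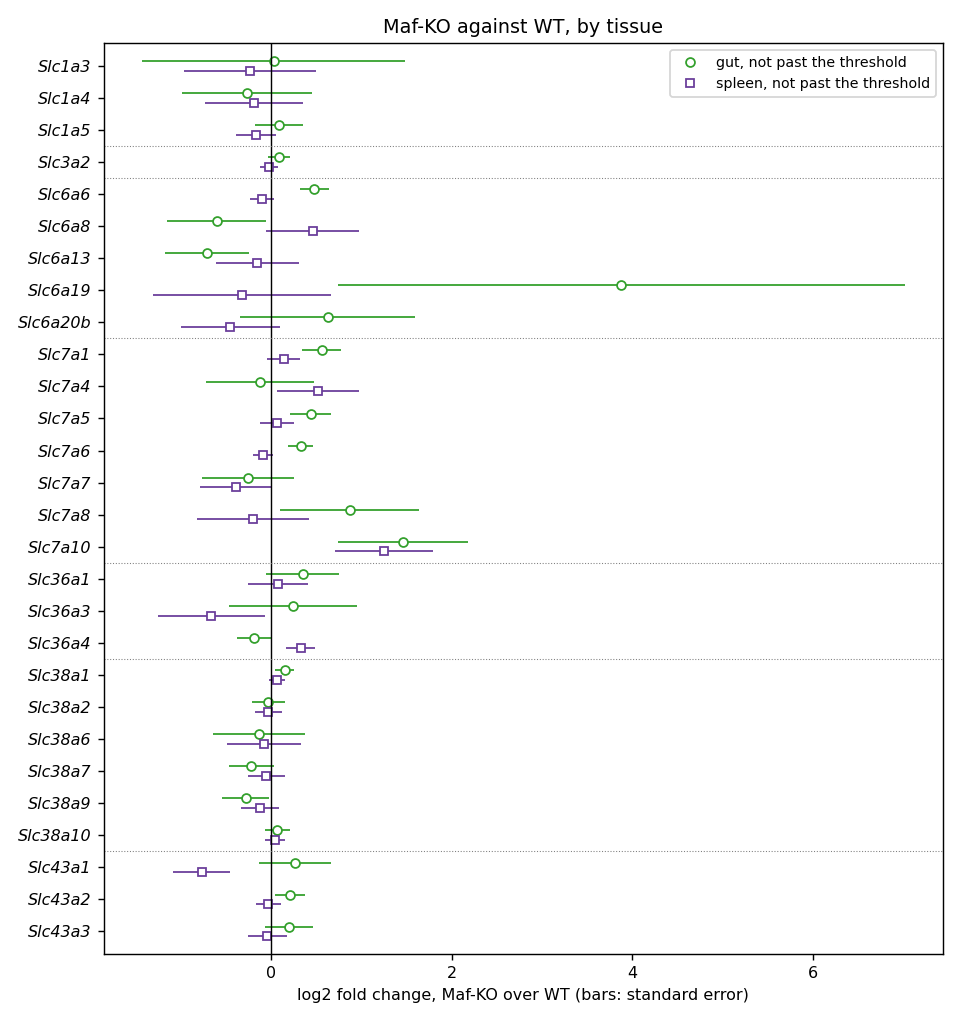
Log2 fold change of Maf-KO over WT (x axis) with its standard error for the 28 tested genes, in gut (circles) and spleen (squares), all open because no adjusted p was under 0.05. Slc3a2 and Slc38a2 lie within 0.09 of 0 at both sites. The widest bar is that of Slc6a19, which had 4 counts in 1 Maf-KO gut library and none in the other 3 gut libraries.

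The difference of the genotype effects between gut and spleen was tested as an interaction. It called 0% of all genes by edgeR (422 of 13214 had an unadjusted p under 0.05) and none of the 28, of which 2 had an unadjusted p under 0.05. These were Slc6a6, at 0.58 (SE 0.21, adjusted p = 0.9999), and Slc7a6, at 0.42 (SE 0.18, adjusted p = 0.9999). The interaction was 0.43 for Slc7a1 (SE 0.29), -0.52 for Slc36a4 (SE 0.25), 0.11 for Slc3a2 (SE 0.16) and 0.00 for Slc38a2 (SE 0.24). The calls of Slc6a6, Slc7a1 and Slc7a6 in Maf-KO alone were thus not shown to differ between genotypes, under any alternative. The 5 comparisons share libraries and are not independent of each other.

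Genes that act with the carriers were read from lists of the same fits, chosen with earlier results of these data known. Their counts stand against 28% of all genes called in WT (14.7% higher, 13.3% lower) and 28.6% in Maf-KO (14.4% higher, 14.1% lower), and nothing particular to a list is read from a share near these. In the glutamine, glutamate and branched-chain list, 3 of 16 genes were higher in gut and none lower in WT, where 28% of all genes were called. Got1, the cytosolic aspartate aminotransferase, had 406 ± 54.3 CPM (SD, n = 2) in WT gut and 42.6 ± 3.96 CPM (n = 3) in WT spleen, a log2 difference of 3.25 (SE 0.16, edgeR adjusted p = 9.13e-07). Glul, which makes glutamine, differed by 1.21 and Asns, which makes asparagine from it, by 1.68. In Maf-KO these 3 were called too, at 3.26, 1.47 and 1.45, and Gls2 was added at 2.41, a call that 8 of 20 alternatives kept.

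In the arginine and polyamine list, 5 of 17 genes were higher and 2 lower in WT gut, where 14.7% of all genes were higher and 13.3% lower. Odc1, the first enzyme of polyamine synthesis, had 855 ± 30.2 CPM in WT gut and 92.5 ± 13.6 CPM in WT spleen, a difference of 3.21 in WT (SE 0.14, edgeR adjusted p = 5.59e-07) and 3.23 in Maf-KO. Sat1, which returns polyamines, was 0.73 higher in WT, and Ass1, an enzyme of arginine synthesis, was lower by -1.32. In Maf-KO 4 genes were higher and 2 lower, with Smox, a spermine oxidase, at -1.13. Without WT gut replicate 1 the WT count was 2 higher and 1 lower. The Maf-KO count was 1 higher and 2 lower without Maf-KO gut replicate 3 or without Maf-KO spleen replicate 1 or 2, and 1 and 1 without Maf-KO gut replicate 2. Without TMM scaling it was 2 and 3 in WT and 1 and 2 in Maf-KO.

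Atf4 encodes the transcription factor of the amino acid response, which has carrier genes among its known targets. The part of Atf4 in the carrier differences between sites was not tested. In its list of 18 tested genes 4 were higher and none lower in WT gut, and 5 were higher and 1 lower in Maf-KO gut, where 28% and 28.6% of all genes were called. Atf4 differed by 1.85 in WT (SE 0.19, edgeR adjusted p = 9.92e-05) and 2.02 in Maf-KO, Cebpb by 2.54 and 2.57, Pycr1 by 2.75 and 2.51 and Asns by 1.68 and 1.45. The other tested genes of the list were not called in WT, and in Maf-KO Mthfd2 was higher by 0.55 and Eif4ebp1 lower by -0.71. Without TMM scaling the list counted 4 higher and 3 lower in WT. Among 9 regulators of carrier level, 4 were higher and 1 lower in WT. Irf4 differed by 2.01 and Hif1a by 1.24, and Nedd4l, a ubiquitin ligase that removes carriers from the membrane, by -2.01 in WT and -2.41 in Maf-KO.

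In the mTORC1 sensing list, 2 of 33 genes were higher and 3 lower in WT, and 2 higher and 5 lower in Maf-KO, where 28% and 28.6% of all genes were called. Rheb, the GTPase that activates mTORC1, was higher by 1.09 and 0.92, and Sesn3 by 1.20 and 1.34. Without TMM scaling the list counted 2 higher and 17 lower in WT and 2 higher and 14 lower in Maf-KO, and with the title block 6 and 6 in WT and 6 and 8 in Maf-KO. Without WT gut replicate 1 it counted 2 and 1 in WT, and in Maf-KO 2 and 2 without gut replicate 2 and 2 and 1 without gut replicate 3.

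Of 20 cytosolic tRNA synthetase genes 1 was higher (Eprs, 0.48) and 3 lower in WT, and 2 higher and 1 lower in Maf-KO. Those counts were 0 and 9 in WT and 1 and 7 in Maf-KO without TMM scaling, and 4 and 3 in Maf-KO with the title block. In WT they were 0 and 1 without WT gut replicate 1, 1 and 0 without WT gut replicate 3 and 1 and 1 without WT spleen replicate 2, and in Maf-KO 1 and 0 without gut replicate 3 or without spleen replicate 2 or 3. Of 14 cystine and glutathione genes, 2 were higher (Gpx4 at 0.96 and Srxn1 at 2.09) and 4 lower in WT, and 3 higher and 4 lower in Maf-KO. The Maf-KO count was 2 and 1 without gut replicate 2, 1 and 0 without gut replicate 3 and 2 and 2 without spleen replicate 2 or 3. Of 14 amino acid carriers outside the 7 families, 1 was higher and 5 lower in WT and 1 higher and 2 lower in Maf-KO (1 and 5 with the title block, 1 and 8 without TMM scaling, and 1 and 0 without Maf-KO gut replicate 2). Without WT gut replicate 1 the WT count was 1 and 1. The higher one was Slc15a3, a lysosomal carrier of histidine and small peptides, at 2.88 and 2.58.

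Between genotypes no gene of these 8 lists was called by edgeR in gut, in spleen or in the interaction. DESeq2 called 1 gene higher and 1 lower in the list of the amino acid response in gut, and 1 lower in each of the glutathione and regulator lists. The smallest p in gut belonged to Slc16a10 (TAT1, a carrier of aromatic amino acids outside the 7 families), with a log2 difference of -3.11 (SE 0.64, edgeR adjusted p = 0.165) and of -1.44 in spleen. Next came Eif4ebp1, a repressor of translation, at -1.07 (adjusted p = 0.180), and Nfe2l2, the regulator of the antioxidant response, at -0.77 (adjusted p = 0.209).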

How the data were processed

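RNA of sorted Tregs had been prepared with an RNeasy Plus Mini kit and sequenced from TruSeq RNA libraries, per the labels. The deposited series table gives unnormalised counts of reads for each Entrez gene. The deposited per-library files hold log2 FPKM of 12252 genes, computed by the authors, and were used for levels between genes after removing the log, and for 1 alternative. The submitters' processing notes name Subread, featureCounts, limma and the builds GRCm38 and mm10. Versions and strand setting: not given in the sources used here. Thus genes with overlapping exons on opposite strands are uncertain, namely Slc6a6, Slc6a20b, Slc7a4, Slc7a7, Slc7a10, Slc38a9, Slc38a10 and Slc43a2.

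Counts were analysed with edgeR 4.0.16 in R 4.3.3: filterByExpr by group (minimum count 10, minimum total 15), TMM (factors 0.887 to 1.12), 1 quasi-likelihood fit to all 10 libraries with a coefficient per group, two-sided F tests and Benjamini-Hochberg adjustment over all 13214 genes tested. The 852 entries without a symbol (0.173 to 0.203% of counts) stayed in. Intervals are at 95%. The code was tested on simulated counts. Replicates differed by more than counting noise (chi-square per degree of freedom 13.9 to 33.4), and floors of 3 counts cover counting error only.

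Titles of 4 gut libraries share a number with a spleen library of the same genotype. Deviations from the group means correlated at 0.313 and 0.255 in WT and 0.382 and 0.360 in Maf-KO over tested genes, so the block by title number is given beside the tissue results. Named were the genes called in a comparison, a fixed set known from T cells, the 3 with the smallest p where none was called and the 5 highest per length, and from each list up to 4 called genes per comparison. The genes and lists were chosen with earlier results of these data known. The alternatives were DESeq2 size factors, library totals, no filter, DESeq2 1.42.0, limma-voom and limma-trend (limma 3.58.1), the compared groups alone, 3 replicate blocks and each library left out. Gene positions and promoters came from RefSeq tables (GRCm38.p6) and exon overlaps from GENCODE.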

Additional observations from a re-analysis of the deposited data

How the results depend on the processing

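Of the calls among the carriers, those of Slc3a2 (2.22 to 2.54 in WT, 2.34 to 2.67 in Maf-KO) and Slc38a2 (1.41 to 1.79 and 1.42 to 1.84, log2) were kept under all 20 alternatives, and no call changed direction. The count of 5 genes called between tissues in WT was 8 with library totals (4 higher, 4 lower), 3 with the replicate number as a block, 8 with the title number as a random effect in limma-voom, 10 with it as a fixed block in edgeR, and 2 to 6 when each library was left out in turn. The count of 6 in Maf-KO was 11 with the title number as a random effect, 11 as a fixed block, and 3 to 7 when each library was left out. Library totals moved the median of all genes between tissues to -0.30 in WT and -0.28 in Maf-KO, from -0.03 and -0.02 with TMM, and the share of higher calls among all called genes to 25.2% and 25.1%, from 52.4% and 50.5%. The carriers called lower were then Slc38a1, Slc43a1, Slc7a10 and Slc6a20b in WT and Slc38a9, Slc38a1 and Slc38a7 in Maf-KO. The cause was not tested. No alternative called a carrier between genotypes or in the interaction, and the title number, which lies within a genotype, could not be fitted as a fixed block to the genotype comparisons. With 2 gut libraries per genotype, leaving 1 out assumes that the other varies like the remaining groups. At fewer than about 10 counts per library, as for Slc6a19, Slc6a20b and Slc1a3, depth limits the comparison.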
